A study of Gallus gallus with 16 samples.

Results

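The extracellular matrix of the gut is the scaffold on which the epithelium, the vessels and the muscle rest. Described here are 47 genes of that matrix in the jejunum of broiler chickens. They comprise 33 collagen chains and 14 other genes for matrix proteins, a protease inhibitor and a receptor. The genes were taken by symbol from the array's annotation: every probe set with exactly 1 gene symbol that read COL, a number, A and a number, or that was one of 17 listed matrix and fibroblast symbols. Where a gene had several probe sets, the brightest on average was used. This gave 47 of the 11528 genes named by the array, which holds 20804 probe sets in all. The listed symbols DCN, FBN1 and NID1 had no such probe set and are not analysed here, nor is COL3A1, which did not meet the rule.

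The study measured gene expression in the jejunum, a part of the small intestine, of 16 male broilers on day 21. The birds were on diets that the labels call H, F, E and A, 4 birds on each, and each bird gave 1 array. The title speaks of saponins and of a blend of essential oils from 4 herbs and spices, but the labels tie no letter to an additive or to a control. All 6 pairs of diets were therefore compared, as later minus earlier letter, and a positive difference means a higher level in the diet named first. Values are read as log2 intensities, so a difference of 1 is a doubling. Birds are named by diet letter and replicate, and replicates have no order. The sample titles carry numbers, and each diet has 2 birds with a number up to 25 and 2 with a higher one. Differences were recomputed within these ranges for some genes, and are given where they moved by over 1.5 times.

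Fibroblasts and other cells under the epithelium secrete most matrix proteins. Fibrillar collagens form the tensile fibres, type IV collagen and laminins form the basement membrane under epithelium, muscle and vessels, and type VI collagen forms beaded filaments around cells. Small leucine-rich proteoglycans and dermatopontin bind collagen fibrils and affect how they assemble. Platelet-derived growth factor receptor alpha (PDGFRA) marks the fibroblast lineage of the gut wall.

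Enterocyte genes had high levels on these arrays, which fits the label jejunum: the means over 16 birds were 12.6 for the adhesion molecule EPCAM, 12.6 for the sucrase-isomaltase SI and 12.1 for the fatty acid binding protein FABP2, where the upper quartiles of the arrays lay between 7.56 and 7.66. Lower quartiles lay between 4.45 and 4.61. Of the 47 genes, 5 were under the lower quartile of the array in all 16 birds: COL14A1, COL15A1, COL4A4, LAMA2 and POSTN. Another 8 were under it in at least 8 birds, DPT, OGN, LUM and THBS2 among them, and background can enter the values of these 13 genes. It can also enter those of genes under the quartile in fewer birds, such as ABI3BP (6 birds) and COL6A6 (5 birds). No array was left out. A level cannot be compared between genes, because each probe set has its own response.

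The main pattern was between single birds. A set of matrix genes rose and fell together over the birds, and in each diet the same bird was the highest in all of them. The spread within a diet was as large as the gap between diets. The mean of the 47 genes was 5.28, 5.16, 5.72 and 5.15 in the birds on diet H, 5.81, 5.26, 5.11 and 5.28 on diet F, 5.63, 6.31, 5.61 and 5.20 on diet E, and 6.03, 5.84, 5.57 and 5.35 on diet A. All 4 diets overlapped, and bird E2 stood highest of all. The diet means were 5.33 ± 0.27 in diet H, 5.37 ± 0.31 in diet F, 5.69 ± 0.46 in diet E and 5.70 ± 0.30 in diet A (SD, n = 4 each), so the widest gap between diets was about the size of the pooled SD within diets, 0.341. In whole tissue, fewer cells of a type and less RNA per cell cannot be told apart.

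**Figure D1:**
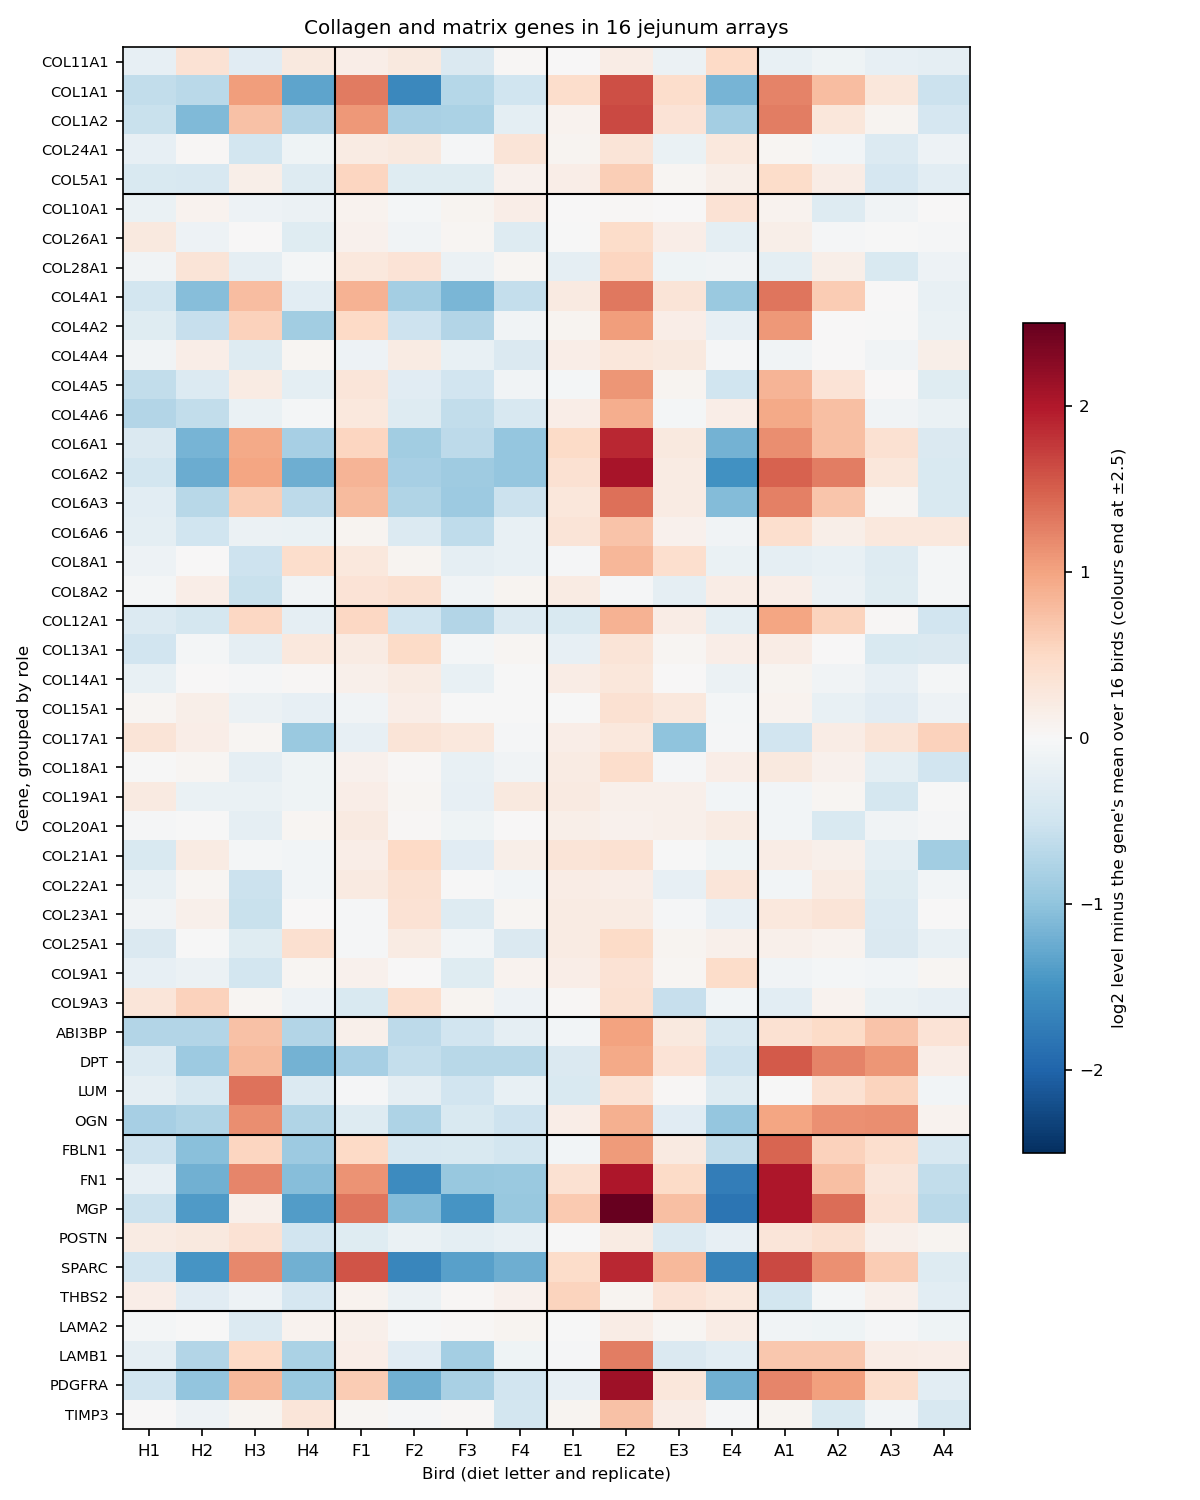
Log2 level of each of the 47 genes (rows, grouped by role) in each of the 16 birds (columns, diets H, F, E and A from left to right), minus the gene's own mean over 16 birds. Red is above and blue below that mean. The birds H3, F1, E2 and A1 are red in COL1A1, COL1A2, COL4A1, COL4A2, COL6A1, COL6A2, COL6A3, FN1, MGP, SPARC and PDGFRA, palest for MGP in H3, and many other rows stay pale in all birds.

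How far each gene followed the others was measured as the Pearson correlation over 16 birds between the gene and the mean of the other 46, after the diet means had been subtracted. This is a description, since the points share arrays and their scaling. In 16 genes this correlation was over 0.8, with a range of 0.8292 to 0.983: COL1A1, COL1A2, COL5A1 and COL12A1, COL4A1, COL4A2 and COL4A5, COL6A1, COL6A2 and COL6A3, and FN1, SPARC, MGP, FBLN1, LAMB1 and PDGFRA. In the other 31 genes it lay between -0.316 and 0.795, and in 10 of them it was below 0. The line at 0.8 was drawn after the values were seen. Just above it stood COL5A1 with 0.8292, and just below it COL6A6 with 0.795. DPT (0.736), OGN (0.765) and ABI3BP (0.769) lay close under it.

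Within each diet, 1 bird was the highest in all 16 of these genes: H3, F1, E2 and A1. This ranking comes from the values that defined the 16 genes. It is a rank within each diet: the average of the 16 genes was 7.33 in bird A2 and 7.32 in bird H3. The 4 birds of diet A ran gradually, with averages of 7.89, 7.33, 6.82 and 6.29. Over all birds E2 was the highest in 12 of the 16 and A1 in the other 4, and E4 was the lowest in 7. For the other 31 genes, E2 was the highest in 13. Their average over birds ran only from 4.75 in bird F3 to 5.35 in bird E2, where the average of the 16 genes ran from 5.71 in bird E4 to 8.18 in bird E2. The array of bird E2 also had the highest lower quartile, 4.61, and the highest median, 6.10, of all arrays. The part of this shift in the rank of E2 was not tested.

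The 16 genes varied more than most of the array. They were chosen by correlation with an unscaled mean, to which genes of large SD give most weight. Their larger SD can thus follow in part from that choice. Matrix Gla protein (MGP), an inhibitor of calcification, spanned 4.55 log2 units, from 4.57 in bird E4 to 9.12 in bird E2, which is a 23.5-fold range. Fibronectin (FN1), a cell-adhesive glycoprotein, spanned 3.75 units, COL6A2 3.59, and the collagen-binding glycoprotein SPARC 3.55. A second probe set for FN1, with a mean of 4.57 against 7.99, had an SD of 0.319 against 1.21. Its correlation with the one used was 0.772 over 16 birds. The SD over 16 birds had a median of 0.831 among the 16 genes and of 0.258 among the other 31, against 0.249 over all 20804 probe sets. Of the 47 genes, 17 had an SD in the top 10% of all probe sets. Laminin alpha 2 (LAMA2), at 0.131, and COL14A1, at 0.148, lay at the other end. Both are among the genes under the lower quartile in all birds.

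**Figure D2:**
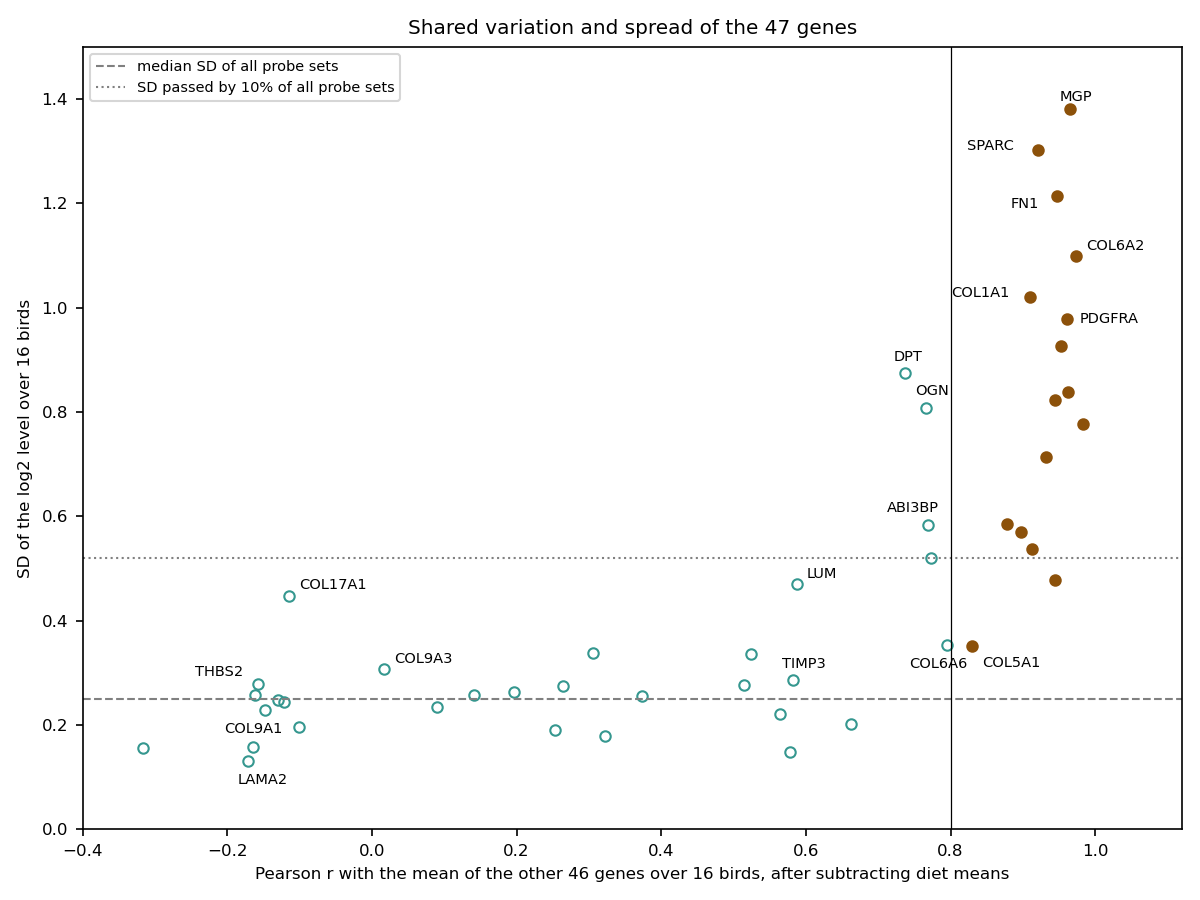
Each point is 1 of the 47 genes. The horizontal axis gives the Pearson correlation with the mean of the other 46 genes over 16 birds after subtraction of diet means, and the vertical axis the SD of the log2 level over 16 birds. The filled points are the 16 genes with a correlation over 0.8, among them MGP, SPARC and FN1 with the largest SDs, and the horizontal lines mark the median SD of all probe sets, 0.249, and the SD passed by 10% of them.

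Little of this spread lay between diets. The share of a gene's sum of squares over 16 birds that lay between the 4 diet means had a median of 20.9% in the 16 genes (range 15.01% to 29.5%), 25.3% over all 47 genes and 21.3% over all probe sets. The 16 genes were chosen by variation within diets, which can lower this share for them. For DPT the share was 59.1% and for COL6A6 61.4%, the highest among the 47.

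Over the 4 diets together, none of the 47 genes passed limma's moderated F test (smallest adjusted p = 0.581), as was the case for all probe sets, where 0% passed. At an unadjusted p under 0.05 there were 7 of 47 genes, 14.9%, beside 8.15% of all probe sets. They were DPT, COL6A6, THBS2, COL9A1, COL4A6, OGN and COL24A1. None of these 7 belonged to the 16 genes that were high together. That depends on where the line at 0.8 was drawn, since COL6A6 (0.795), COL4A6 (0.772), OGN (0.765) and DPT (0.736) lay close under it. THBS2, COL9A1 and COL24A1 lay far below it.

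Among the fibrillar collagens, the alpha 2 chain of type I collagen (COL1A2) had levels of 6.11, 5.55, 7.40 and 5.92 in the birds on diet H, 7.73, 5.84, 5.86 and 6.41 on diet F, 6.75, 8.31, 7.002 and 5.82 on diet E, and 7.93, 6.95, 6.72 and 6.25 on diet A. One bird in each diet stood well above its neighbours and all diets overlapped. Between diets H and A the log2 difference was -0.71 (SE 0.546, limma adjusted p = 0.643). It was -1.10 without diet H replicate 3 and -0.39 without diet A replicate 1. In title numbers up to 25 it was -1.61, in those over 25 it was 0.18, and with title number as a covariate it was -0.35. A further probe set for COL1A2, with a mean of 3.25 against 6.66, had a correlation of 0.450 with it over 16 birds. The other chain of type I collagen, COL1A1, averaged 8.78 ± 1.01 in diet H, 8.78 ± 1.22 in diet F, 9.50 ± 1.14 in diet E and 9.61 ± 0.76 in diet A (SD, n = 4 each).

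COL24A1, a minor fibrillar collagen, did not follow type I collagen and had a correlation of 0.0906 with the other genes. Its levels were 5.30, 5.53, 5.05 and 5.39 in diet H, 5.71, 5.74, 5.47 and 5.82 in diet F, 5.57, 5.84, 5.34 and 5.77 in diet E, and 5.56, 5.44, 5.15 and 5.39 in diet A. Bird H3 was its lowest, although that bird was the highest of diet H for COL1A2. The H minus F difference was -0.37 (SE 0.140, unadjusted p = 0.0185, limma adjusted p = 0.842). COL5A1, which sets the diameter of collagen I fibrils, differed by -0.48 between diets H and E (SE 0.225, limma adjusted p = 0.523), with -0.78 and -0.19 in the birds with lower and upper title numbers.

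COL4A1, COL4A2 and COL4A5 of type IV collagen and COL6A1, COL6A2 and COL6A3 of type VI followed the same birds as type I. In the gene order of the chicken RefSeq annotation 3 pairs of the 47 genes are direct neighbours among protein-coding genes: COL4A1 and COL4A2 on chromosome 1, COL4A5 and COL4A6 on chromosome 4, and COL6A1 and COL6A2 on chromosome 7. Over 16 birds, after subtraction of diet means, the correlation was 0.886 within the first pair, 0.845 within the second and 0.989 within the third. COL6A2 averaged 6.97 ± 1.04 in diet H, 6.99 ± 0.87 in diet F, 7.73 ± 1.47 in diet E and 8.11 ± 0.87 in diet A (SD, n = 4 each). COL4A1, a chain of the main basement membrane network, averaged 5.95 ± 0.77, 5.77 ± 0.89, 6.43 ± 0.92 and 6.65 ± 0.68 in diets H, F, E and A (SD, n = 4 each).

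COL6A6, a long chain of type VI collagen, was the collagen with the smallest p over the diets. Its levels were 4.43, 4.19, 4.54 and 4.51 in the birds on diet H, 4.75, 4.34, 4.05 and 4.50 on diet F, 5.0005, 5.39, 4.79 and 4.59 on diet E, and 5.10, 4.83, 4.94 and 4.95 on diet A. Every bird on diets H and F lay below every bird on diet A, and every bird on diet H lay below every bird on diet E. In 5 birds, all on diets H and F, COL6A6 lay under the lower quartile of the array, where background can enter. The log2 differences were -0.54 for H minus A, -0.55 for F minus A, -0.53 for H minus E and -0.53 for F minus E, each with SE 0.171. Limma's adjusted p was 0.250, 0.721, 0.479 and 0.9998 for these pairs, which share diets, so none passed. The H minus E difference was -0.89 in title numbers up to 25 and -0.17 in those over 25. A second probe set for COL6A6 had a correlation of 0.795 with the one used. COL4A6 showed a similar order, with 4.75 ± 0.34 in diet H, 4.87 ± 0.38 in diet F, 5.44 ± 0.42 in diet E and 5.50 ± 0.57 in diet A (SD, n = 4 each). Its H minus A difference of -0.75 (SE 0.282, limma adjusted p = 0.328) was -1.52 in the birds with title numbers up to 25 and 0.020 in those over 25. Its H minus E difference of -0.69 (limma adjusted p = 0.512) was -1.22 and -0.17 in the lower and upper title numbers. Its F minus A difference of -0.63 (limma adjusted p = 0.726) was -0.87 and -0.39 in them.

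A group of 14 genes held the fibril-associated and transmembrane collagens, with COL15A1 and COL18A1 placed among them. Its median difference was 0.02 between diets H and A, 0.12 between F and A and 0.22 between E and A. COL9A1, a fibril-associated collagen best known from cartilage, had levels of 4.80, 4.86, 4.54 and 5.05 in diet H, 5.12, 5.02, 4.70 and 5.09 in diet F, 5.16, 5.36, 5.05 and 5.47 in diet E, and 4.92, 4.96, 4.94 and 5.05 in diet A. The birds on diet E lay above those on diet H without overlap, by a narrow margin, with a difference for H minus E of -0.45 (SE 0.132, limma adjusted p = 0.479). COL17A1, a transmembrane collagen of the hemidesmosomes that fix epithelial cells to the basement membrane, ran apart from the fibroblast-type collagens. It was lowest in birds E3 (5.56), H4 (5.64) and A1 (6.09), and its correlation with the other genes was -0.115. The highest correlation in this group was that of COL12A1, 0.912, followed by COL14A1 with 0.578.

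Dermatopontin (DPT), a small protein that binds decorin and collagen, had the smallest p of the 47 genes in limma's moderated F test over the diets (unadjusted p = 0.0032, adjusted p = 0.581). Its levels were 4.17, 3.59, 5.29 and 3.33 in the birds on diet H, 3.68, 3.90, 3.81 and 3.80 on diet F, 4.14, 5.45, 4.84 and 3.98 on diet E, and 6.02, 5.74, 5.60 and 4.67 on diet A. All birds on diet F lay below all birds on diets E and A, while diets H and A overlapped through bird H3. The F minus A difference was -1.71 (SE 0.398), a 3.28-fold lower level, with an unadjusted p of 0.000591 and a limma adjusted p of 0.721. The H minus A difference was -1.42 (limma adjusted p = 0.218), with -2.01 in the birds with title numbers up to 25 and -0.83 in the others. The diet F levels lay under the lower quartile of each array, where background can enter.

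Osteoglycin (OGN), a small leucine-rich proteoglycan, had levels of 3.90, 3.97, 5.89 and 3.97 in diet H, 4.40, 3.95, 4.34 and 4.20 in diet F, 4.90, 5.62, 4.45 and 3.75 in diet E, and 5.71, 5.87, 5.89 and 4.81 in diet A. As with DPT, diet F lay below diet A in every bird, and bird H3 alone of diet H reached the diet A levels. The F minus A difference was -1.35 (SE 0.433, limma adjusted p = 0.721). The H minus A difference of -1.14 (limma adjusted p = 0.338) was -1.86 in title numbers up to 25 and -0.42 in those over 25. The E minus A difference of -0.89 (limma adjusted p = 0.660) was -0.53 and -1.25 in the lower and upper title numbers. Lumican (LUM), of the same proteoglycan family, averaged 4.48 ± 0.84 in diet H, 4.15 ± 0.19 in diet F, 4.31 ± 0.34 in diet E and 4.60 ± 0.30 in diet A (SD, n = 4 each), and bird H3 had the highest level of all, 5.73. ABI3BP, a collagen-binding matrix protein, averaged 4.51 ± 0.74, 4.57 ± 0.34, 5.07 ± 0.61 and 5.35 ± 0.17 in diets H, F, E and A (SD, n = 4 each), and its 4 birds on diet F lay below the 4 on diet A. The H minus A difference of ABI3BP, -0.84 (limma adjusted p = 0.355), was -1.16 and -0.52 in the lower and upper title numbers.

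In bird F1, DPT did not follow the collagens. That bird was the highest bird of diet F for all 16 genes that were high together, with 10.33 for SPARC and 7.73 for COL1A2, both close to the 10.41 and 7.93 of bird A1. Its DPT level, 3.68, was the lowest of diet F and stood against 6.02 in bird A1. Its OGN level of 4.40 was the highest of diet F, but stood against 5.71 in bird A1. In bird H3, by contrast, SPARC, DPT and OGN were each the highest of the diet, at 9.96, 5.29 and 5.89. These are comparisons of single birds, chosen after the values were seen and without a test.

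**Figure D3:**
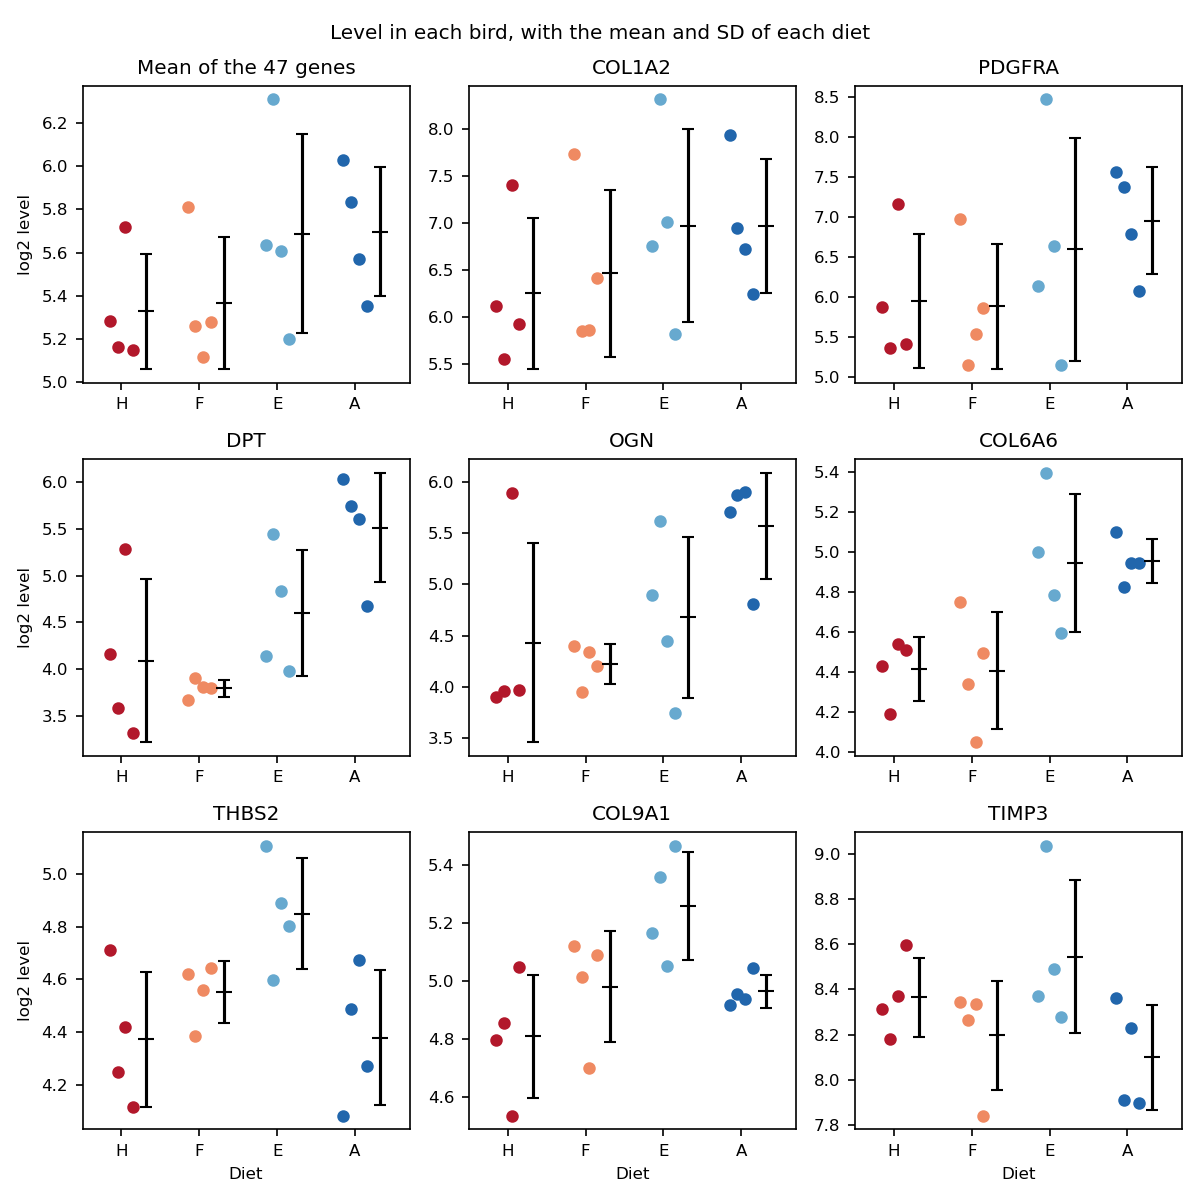
Log2 level in each bird by diet (H, F, E and A from left to right) for the mean of the 47 genes and for 8 genes, with a bar for the mean and SD of each diet (n = 4) to the right of its points. COL1A2 has 1 bird per diet well above the others, PDGFRA does in diets H, F and E, the 4 diet F birds lie at 3.68 to 3.90 for DPT, and THBS2 and COL9A1 have their highest means in diet E.

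Among the glycoproteins, thrombospondin 2 (THBS2), a matricellular regulator of collagen fibrils and vessel growth, had its highest mean in diet E. Its levels were 4.71, 4.25, 4.42 and 4.12 in diet H, 4.62, 4.39, 4.56 and 4.64 in diet F, 5.10, 4.60, 4.89 and 4.80 in diet E, and 4.09, 4.49, 4.67 and 4.27 in diet A. Of the 4 diet E birds, 3 lay above every bird on diets H and A. THBS2 was under the lower quartile of the array in 8 birds, bird E2 among them, where background can enter. The E minus A difference was 0.47 (SE 0.155, limma adjusted p = 0.613) and the H minus E difference -0.47 (limma adjusted p = 0.479). FN1, SPARC and MGP had differences of -0.93, -1.26 and -1.58 for H minus A and of -1.19, -1.44 and -1.31 for F minus A, with SEs of 0.780 to 0.832 and limma adjusted p between 0.486 and 0.763. The H minus A difference of MGP was -2.69 in title numbers up to 25, -0.48 in those over 25 and -0.61 with title number as a covariate. In title numbers up to 25, FN1 lay at 6.79 to 7.78 in diet H and at 8.75 to 10.004 in diet A. Over 25 it lay at 6.92 to 9.20 in diet H and at 7.37 to 8.28 in diet A. SPARC lay at 7.29 to 8.29 in diet H and 9.90 to 10.41 in diet A in the lower range. In the upper range it lay at 7.56 to 9.96 in diet H and 8.45 to 9.40 in diet A. Fibulin 1 (FBLN1), which binds fibronectin and elastic fibres, averaged 5.20 ± 0.71 in diet H, 5.51 ± 0.46 in diet F, 5.85 ± 0.70 in diet E and 6.21 ± 0.76 in diet A (SD, n = 4 each). Its H minus A difference was -1.005 (SE 0.425, limma adjusted p = 0.389), with -1.81 and -0.20 in the lower and upper title numbers. Periostin (POSTN), a matricellular protein of fibroblasts, had a F minus A difference of -0.46 (limma adjusted p = 0.721) at levels under the lower quartile of each array.

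PDGFRA, the fibroblast receptor, had levels of 5.87, 5.36, 7.16 and 5.41 in the birds on diet H, 6.97, 5.15, 5.54 and 5.86 on diet F, 6.13, 8.47, 6.63 and 5.14 on diet E, and 7.57, 7.37, 6.78 and 6.08 on diet A. High and low birds were those of the collagens, with E2 at the top and E4 at the bottom. The H minus A difference was -0.998 (SE 0.607, limma adjusted p = 0.548), with -1.85 in the birds with title numbers up to 25, -0.15 in the others and -0.59 with title number as a covariate. TIMP3, an inhibitor of matrix metalloproteinases that is bound to the matrix, had levels of 8.31, 8.18, 8.37 and 8.60 in diet H, 8.35, 8.26, 8.33 and 7.84 in diet F, 8.37, 9.03, 8.49 and 8.28 in diet E, and 8.36, 7.91, 8.23 and 7.90 in diet A. Diets overlapped, and the E minus A difference of 0.44 (SE 0.175, limma adjusted p = 0.613) was 0.28 without diet E replicate 2. Laminin beta 1 (LAMB1), a subunit of several laminins, averaged 5.46 ± 0.60, 5.50 ± 0.43, 5.93 ± 0.76 and 6.20 ± 0.29 in diets H, F, E and A (SD, n = 4 each).

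Pair by pair, none of the 47 genes passed limma's adjusted threshold of 0.05. The background was 0.00481% of all probe sets for H minus A and 0% for each of the other 5 pairs. Between diets H and A, 33 of 47 genes lay lower in diet H, 70.2% beside 49.8% of all probe sets, with a median difference of -0.16 beside 0.00 over all probe sets. At an unadjusted p under 0.05 there were 6 lower genes (12.8%, beside 5.91% of all probe sets) and 0 higher ones (beside 5.62%): DPT, COL6A6, COL4A6, OGN, ABI3BP and FBLN1. COL6A6 alone had groups that did not overlap, 2.13% lower beside 3.18% of all probe sets, and 0 genes were higher without overlap beside 2.89%. The median was -0.24 without diet H replicate 3 and -0.10 without diet A replicate 2.

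Between diets F and A, 26 of 47 genes lay lower in diet F (55.3%, beside 44.9% of all probe sets), and the median difference was -0.09 beside 0.02 over all probe sets. Of these genes 6 had an unadjusted p under 0.05, again 12.8%, beside 3.05% of all probe sets: DPT, COL6A6, OGN, POSTN, ABI3BP and COL4A6. On the higher side COL24A1 was the 1 such gene (2.13%, beside 3.78%). In 5 genes the 4 birds on diet F all lay below the 4 on diet A, 10.6% beside 2.51% of all probe sets, and these were DPT, COL6A6, OGN, POSTN and ABI3BP. LAMA2, by 0.14, was the 1 gene higher without overlap, beside 2.42%. All of these genes had levels where background can enter. POSTN and LAMA2 were under the lower quartile of the array in 16 birds, DPT and OGN in 9, ABI3BP in 6 and COL6A6 in 5. The median was -0.16 without diet F replicate 2 and -0.04 without diet F replicate 4. Diets H and F were each compared with the same diet A birds, so the 2 comparisons are not independent.

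Between diets E and A the genes split. There were 25 higher and 22 lower in diet E (46.8% lower, beside 45.2% of all probe sets), with a median of 0.04 beside 0.03 over all probe sets. At an unadjusted p under 0.05, 5 lay higher (10.6%, beside 4.74% of all probe sets), THBS2, COL20A1, TIMP3, COL9A1 and COL15A1, and 1 lay lower (2.13%, beside 2.97%), DPT at -0.91 (SE 0.398, limma adjusted p = 0.621). COL20A1, COL9A1 and LAMA2 were higher in diet E without overlap (6.38%, beside 2.49%), and 0 genes were lower without overlap, beside 1.37%. The median was -0.07 without diet E replicate 2 and 0.20 without diet E replicate 4.

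Diet E lay above diets F and H for most genes. In diet F 40 of 47 were lower than in diet E (85.1%, beside 50.8% of all probe sets; median -0.29 beside -0.00), and in diet H 43 of 47 were lower (91.5%, beside 54.9%; median -0.30 beside -0.03). Without diet E replicate 2 these medians were -0.10 and -0.15. At an unadjusted p under 0.05 there was 1 lower gene for F minus E (COL6A6, 2.13% beside 1.66%; 0 higher, beside 1.29%) and 6 for H minus E (12.8%, beside 5.66%): COL9A1, COL6A6, THBS2, COL4A6, COL24A1 and COL5A1, with 0 higher beside 3.86%. Groups did not overlap for DPT in F minus E, which lay lower (2.13%, beside 1.06%; 0 higher, beside 0.957%). In H minus E they did not overlap for COL9A1, COL6A6, COL4A6 and COL20A1, all lower (8.51%, beside 3.23%; 0 higher, beside 2.1%). Between diets H and F 30 of 47 lay lower in diet H (63.8%, beside 54.8%), with a median of -0.05 beside -0.02, and COL24A1 was the 1 gene with an unadjusted p under 0.05 (2.13% lower, beside 3.25%; 0 higher, beside 2.02%). All groups overlapped, where 2.54% of all probe sets were lower and 1.49% higher without overlap. That median was -0.18 without diet H replicate 3 and 0.06 without diet F replicate 1.

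**Figure D4:**
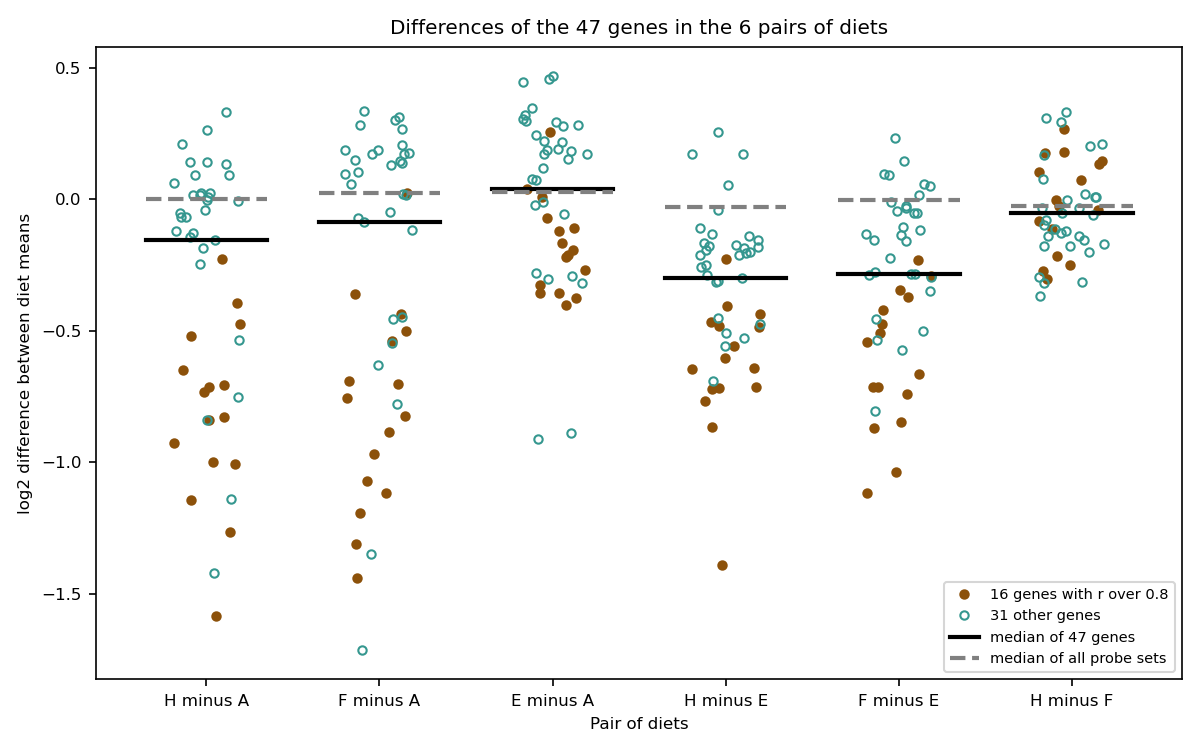
Log2 difference between diet means for each of the 47 genes in each pair of diets, diet named first minus the other. Filled points are the 16 genes that were high together over birds, open points the other 31, the black bar is the median of the 47 genes and the dashed bar that of all 20804 probe sets. In H minus A and F minus A the filled points have medians of -0.78 and -0.79, and the open points medians of -0.01 and 0.10.

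Set apart, the 16 genes that were high together had medians of -0.78 for H minus A and -0.79 for F minus A, and the other 31 genes medians of -0.01 and 0.10. Every one of the 16 was lower in diet H, against diet A, with differences from -1.58 to -0.23, beside 49.8% of all probe sets. At an unadjusted p under 0.05 there was 1 lower gene of the 16, FBLN1, beside 5.91% of all probe sets. This direction did not hold within both ranges of title numbers. Over 25, COL1A2 (0.18), COL4A1, COL4A5, COL5A1, COL6A1, COL6A3, COL12A1 and FN1 had higher means in diet H than in diet A. The rest of the 16 were lower in diet H there too. For F minus A 15 of 16 lay lower, beside 44.9% of all probe sets, with COL5A1 at 0.02. For E minus A 13 of 16 did, beside 45.2%, with a median of -0.20. These genes share their variation over birds, so their directions are not independent. None of the 16 had an adjusted p under 0.389 in any pair.

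The labels do not say what the lower and upper ranges of title numbers stand for. For H minus A the median of the 47 genes was -0.29 in the lower range and -0.03 in the upper, for H minus E -0.46 and -0.06, and for H minus F -0.27 and 0.16. For F minus A it was -0.13 and -0.14, for E minus A 0.09 and 0.06, and for F minus E -0.25 and -0.21. In H minus E, 44 of 47 genes lay lower in the lower range and 26 in the upper. A test of the difference between ranges, the interaction of diet and range in limma, passed for none of the 47 genes in any pair (smallest adjusted p = 0.605, for COL4A6 in H minus A). Over all probe sets it passed for 4 in F minus A and for 0 in the other pairs. At an unadjusted p under 0.05 there were 7 of 47 in H minus A, beside 7.17% of all probe sets, and 7 of 47 in H minus E, beside 5.34%. In F minus A there were 0 of 47, beside 4.68%, and in F minus E 0, beside 7.81%. In E minus A there was 1 of 47, beside 7.79%, and in H minus F 1, beside 4.11%.

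Lists of pericyte, smooth muscle and endothelial genes moved with the matrix genes by bird. A list of 7 measured pericyte genes had means of 6.22 to 6.49 in diet H, 6.15 to 6.87 in diet F, 6.58 to 7.13 in diet E and 6.20 to 7.06 in diet A. A list of 16 smooth muscle genes ran from 5.20 to 5.83 in diet H, 5.25 to 5.83 in diet F, 5.43 to 5.91 in diet E and 5.40 to 5.82 in diet A. The same 4 birds, H3, F1, E2 and A1, were the highest of their diets in both lists. For 19 endothelial genes the ranges were 5.03 to 5.46, 4.90 to 5.34, 5.02 to 5.74 and 5.09 to 5.41 in diets H, F, E and A, with the same birds at the top. These birds also led their diets in the lists of collagen processing, elastic fibre and matricellular, and transforming growth factor beta pathway genes described below. In the lists of proteoglycans, other laminins, proteases and matrix receptors they did not lead in every diet. Levels of RGS5, a pericyte gene, followed the mean of the 47 genes with a correlation of 0.972 after subtraction of diet means, PDGFRB with 0.925, the endothelial receptor KDR with 0.941 and the smooth muscle myosin MYH11 with 0.846. PECAM1, another endothelial marker, did not (-0.112), and it averaged 5.26 ± 0.17 in diet H, 4.62 ± 0.21 in diet F, 4.80 ± 0.39 in diet E and 4.54 ± 0.16 in diet A (SD, n = 4 each; limma adjusted p = 0.581 over the diets). The endothelial markers CDH5 and TIE1 had correlations of 0.789 and 0.697. Markers of pacemaker cells, neurons and glia followed less or not at all. Their correlations were 0.394 for KIT, 0.502 for ANO1, 0.014 for ELAVL4, -0.066 for SNAP25, 0.154 for SOX10 and -0.336 for S100B. No marker was listed at 0. The part of these cells in the result was not tested.

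Enterocyte genes lay the other way in some of these birds. The mean of 30 enterocyte genes was 10.80 to 11.05 in diet H, 10.78 to 10.99 in diet F, 10.54 to 11.05 in diet E and 10.55 to 10.85 in diet A, and birds E2 (10.54) and A1 (10.55) were the lowest of all. Bird H3 (10.85) lay inside the range of its diet, and F1, F2 and F4 all lay at 10.78. Between diets H and A, 24 of the 30 were higher in diet H, where 49.8% of all probe sets were lower. Of these genes 6 were higher with an unadjusted p under 0.05, beside 5.62% of all probe sets, and 1 was lower, beside 5.91%. The mean of 14 macrophage and lymphocyte genes was 7.72 to 8.58 in diet H, 8.22 to 8.41 in diet F, 8.04 to 8.69 in diet E and 8.11 to 8.83 in diet A, with H3, F1, E2 and A1 again the highest birds of their diets. The leukocyte markers PTPRC and CD3D did not follow the mean of the matrix genes. Their correlations with it after subtraction of diet means were -0.219 and 0.134. Glia and erythrocyte lists had F1, E2 and A1 at the top but H4 in diet H, and in the neuron and pacemaker, mesothelium and adipocyte lists at most 1 of the birds H3, F1, E2 and A1 was the highest of its diet. The adipocyte marker ADIPOQ, unlike its list, did follow the mean of the matrix genes, with a correlation of 0.868. For the adipocyte marker PLIN1 it was 0.167.

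Genes of dividing cells lay lower in diets H, F and E than in diet A. The mean of the 47 matrix genes was lower in diets H and F, but close in diets E and A, at 5.69 and 5.70. The mean of 22 proliferation genes was 5.91 ± 0.76 in diet H, 6.003 ± 0.20 in diet F, 6.03 ± 0.57 in diet E and 6.65 ± 0.38 in diet A (SD, n = 4 each). Between diets H and A all 22 lay lower in diet H, beside 49.8% of all probe sets, with a median difference of -0.81, and 9 had an unadjusted p under 0.05, beside 5.91%. For F minus A all 22 lay lower, beside 44.9% of all probe sets, with a median of -0.71. By bird this list was in part like the matrix genes. Birds H3 (6.94) and E2 (6.83) were again the highest of diets H and E, and H4, E4 and A4 the lowest of theirs. In diet A bird A3 (7.03) lay above A1 (6.84), and F1, at 5.75, was the lowest of diet F. None of the 22 genes passed limma's adjusted threshold, and the part of these cells in the matrix result was not tested.

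**Figure D5:**
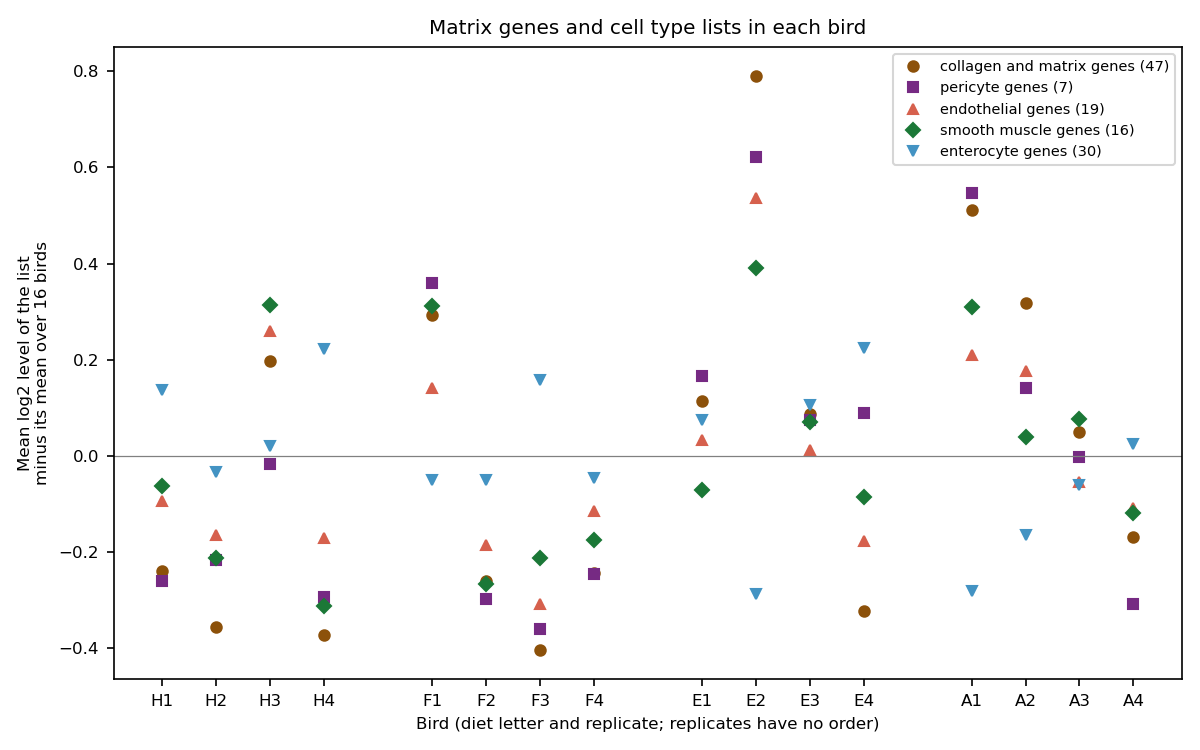
Mean log2 level of the 47 collagen and matrix genes and of lists of pericyte, endothelial, smooth muscle and enterocyte genes in each bird, each minus its own mean over 16 birds (number of measured genes in brackets; diets H, F, E and A from left to right). In birds F1, E2 and A1 the first 4 lists all lie above 0, and the enterocyte list lies lowest in E2 and A1.

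Other named genes followed the 47 as closely over birds. The 15 with the highest correlations after subtraction of diet means were MRC2 (0.980), MGLL, RGS5, NRP1, MXRA8, GGT5, ALDH1A3, BMP6, TNC, SPON1, LGALS1A, GJA1, CD81, TGFBI and TCF21 (0.954). MRC2 encodes the receptor by which fibroblasts take up collagen, TNC the matrix glycoprotein tenascin C, and TCF21 a transcription factor of mesenchymal cells. Of 11481 other named genes, 101 had a correlation over 0.9. All points share the arrays, and the genes are not independent.

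Other genes of matrix making and turnover were counted in lists drawn up for this description, beside the 8.15% of all probe sets with an unadjusted p under 0.05 over the diets. Of 24 measured genes for collagen processing, 1 had an unadjusted p under 0.05 over the diets, MIA3, which helps load procollagen into vesicles, with 8.67 ± 0.23 in diet H, 8.64 ± 0.10 in diet F, 8.40 ± 0.35 in diet E and 8.14 ± 0.10 in diet A (SD, n = 4 each; limma adjusted p = 0.581). Of 13 other laminin and basement membrane genes 2 did, LAMB3, a chain of an epithelial laminin, with 8.66 ± 0.44, 8.30 ± 0.45, 8.47 ± 0.17 and 7.52 ± 0.80 in diets H, F, E and A (limma adjusted p = 0.594), and the laminin receptor DAG1 with 8.05 ± 0.15, 8.35 ± 0.17, 8.30 ± 0.17 and 8.44 ± 0.08 (SD, n = 4 each; limma adjusted p = 0.604). LAMB3 lay lowest in diet A, where LAMB1 lay highest.

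The same count, again beside 8.15% of all probe sets, was 1 of 25 for proteoglycans (CHAD), 1 of 34 for elastic fibre and matricellular genes (WISP2), 2 of 32 for matrix proteases and their inhibitors (ADAMTS17 and ADAMTS7), 2 of 24 for matrix receptors (FERMT1 and PTK2) and 1 of 18 for the transforming growth factor beta pathway (SKI). FERMT1, an integrin activator of epithelial cells, averaged 8.28 ± 0.07 in diet H, 7.98 ± 0.12 in diet F, 7.86 ± 0.33 in diet E and 7.80 ± 0.24 in diet A (SD, n = 4 each; limma adjusted p = 0.609). SKI, a repressor of SMAD signalling, averaged 7.93 ± 0.20, 7.62 ± 0.13, 7.57 ± 0.10 and 7.50 ± 0.21 in diets H, F, E and A (SD, n = 4 each; limma adjusted p = 0.597). None of these genes had an adjusted p under 0.05. For H minus A the median difference was -0.18 for collagen processing, 0.06 for laminins and basement membrane, -0.03 for proteoglycans, -0.03 for elastic fibre and matricellular genes, -0.06 for proteases and inhibitors, 0.01 for receptors and -0.06 for the growth factor pathway, beside -0.16 for the 47 genes.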

How the data were processed

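RNA from the jejunum of 16 birds was copied to DNA and labelled with biotin for 1-colour Affymetrix whole-transcript arrays, per the labels' protocols. GCOS 1.1.1 is named per the submitters' processing notes. The values of the deposited series table were read as log2 intensities from their range. How the authors summarized and normalized these values, and the log base, is not stated in those sources. Quartiles of the deposited log2 values were close on all arrays, with bird E2 at the edge of each. Its array had the highest lower quartile (4.61), the highest median (6.10) and the lowest upper quartile (7.56). No measure of signal over background was used, and precision is limited by 4 arrays per diet. The labels do not say whether birds shared a pen, and the fit treats them as independent.

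Gene names came from the annotation of the platform, in which 12300 of 20804 probe sets have 1 symbol. Entrez numbers of 44 of the 47 genes were found in the RefSeq gene table (GRCg7b), where 0 symbols differed. No genome build of the array is stated, so only gene order was taken from that table. The main model, with 1 mean for each diet over the 16 arrays, used limma 3.58.1 (lmFit, eBayes) in R 4.3.3, with Benjamini-Hochberg adjustment over all 20804 probe sets and a threshold of 0.05. Python 3.11.15 with matplotlib 3.10.9 drew the figures. The fit was tested on simulated data.

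The 47 genes and the gene lists were chosen with earlier results of these data known, so no test was made over a list. Levels of all birds are given for a fixed set of genes (DPT, OGN, COL1A2, TIMP3, PDGFRA), for the 4 with the smallest p over the diets and for the 1 with the smallest p in each pair. Of each list up to 3 genes with the smallest p over the diets could be named. The alternatives were other scalings, filters, moderation and array weights, title numbers as terms, fewer arrays, the mean over a gene's probe sets, and leaving out each bird.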

Additional observations from a re-analysis of the deposited data

Results flagged for a closer look

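In a diet of 4 birds, 13 of 188 combinations of gene and diet had 1 bird far from the other 3 by Dixon's test, which is 6.91%, where chance gives about 1 in 20. The combinations share arrays and genes that vary together, so they are not independent tests. Bird H3 was the highest of diet H for ABI3BP at 5.6153, COL5A1 at 6.2994, LUM at 5.7347 and OGN at 5.8872. Bird F1 was the highest of diet F for COL6A2 at 8.2958, FBLN1 at 6.1943 and SPARC at 10.3311. Bird A1 was the highest of diet A for COL4A2 at 6.4514 and COL26A1 at 5.4574. Smaller gaps on the log2 scale were those of COL10A1 in birds H2 (5.3872) and E4 (5.6716), COL20A1 as the lowest in bird A2 (4.4093) and TIMP3 as the lowest in bird F4 (7.8417). Of the 13 values, 9 belong to H3, F1 and A1, each the highest bird of its diet in the 16 matrix genes, and none belongs to E2, the highest bird of diet E. These birds were named from the same values, so the overlap is no separate evidence.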

How the results depend on the processing

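None of the 47 genes was called in any comparison under any of the alternatives run, with 36 of the 47 left after removal of the lowest 25% of probe sets (DPT and POSTN were among those removed). The count over all probe sets was 1 over the 4 diets with median centring, with that filter, with trend and robust moderation and with array weights, against 0 as reported. For H minus A it was 111 with the replicate block by title number range, and 0 within each range and with only the 2 diets compared, against 1. Leaving out 1 bird gave 0 to 2 for H minus A, 0 to 2 for F minus A, 0 to 1 for E minus A, 0 to 10 for F minus E and 0 to 2 for H minus E. The 31 differences of single genes that were recomputed kept their direction in every alternative except 2. With title numbers over 25, COL4A6 was at 0.020 and COL1A2 at 0.18 for H minus A. Most of the 31 were picked for an unadjusted p under 0.05 in these same data, which makes a kept sign likely. The exceptions were COL1A2, PDGFRA and MGP for H minus A and OGN for E minus A. Outside the 31, several genes also changed sign for H minus A in that range, FN1 and COL4A1 among them. The medians of the 47 genes stayed within 1 SD between birds (0.341) of the reported ones. Every reported median was smaller in size than that SD, so this does not show that a sign was stable. The H minus F median ran from -0.27 in title numbers up to 25 to 0.16 in those over 25. For E minus A it ran from -0.06 with array weights to 0.16 with title number as a linear covariate. With the lowest 25% removed the medians were -0.44 for H minus A and -0.40 for F minus A, and with title number as a linear covariate -0.07 and 0.01. The cause was not tested. No paired analysis was possible because the labels give birds of different diets no common replicate numbers.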
